A study of Mus musculus with 12 samples.

Results

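The 7 genes described here, *Lyz1*, *Mmp7*, *Ang4*, *Itln1* and the alpha-defensins *Defa17*, *Defa22* and *Defa24*, encode products that Paneth cells secrete, and were followed in RNA of intestinal stem cells (ISCs) sorted from the mouse small intestine. They were taken by symbol from a table of 47729 genes, and all 7 were found and were high enough to be tested in every comparison. The 12 libraries fell into 4 groups of 3. All mice carried *Lgr5-EGFP-IRES-CreERT2*, a knock-in that marks stem cells with EGFP from the *Lgr5* locus and is known to be silent in some crypts, were of both sexes and were 8 to 10 weeks old. Ctrl mice were left unrestrained and were kept from food and water for as long as the stressed mice (libraries Ctrl 1, 2 and 3). Stressed mice were restrained for 3 h on 1 day (libraries stress 1+2, 3 and 4+5+6, whose names read as pools of mice). CORT mice received a single intraperitoneal injection of corticosterone, the main glucocorticoid of mice, at 5 mg/kg (libraries CORT 2, 4 and 5). Vehicle mice received the solution without corticosterone, a solution of sulfobutylether-β-cyclodextrin (libraries vehicle 3, 5 and 6). Cells were sorted as EpCAM+, CD24- and Lgr5-EGFPhi, negative for CD31, CD45 and TER119. The sex of the mice of each library was not given in the sources used here.

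Paneth cells sit between the stem cells at the base of the crypt and release granules of antimicrobial proteins into the lumen. Lysozyme, the product of *Lyz1*, cuts bacterial peptidoglycan, and alpha-defensins are small peptides that disrupt bacterial membranes. Mouse alpha-defensins are made as inactive precursors and are activated by matrilysin, the protease encoded by *Mmp7*. *Ang4* encodes an antimicrobial member of the angiogenin ribonucleases, and *Itln1* encodes intelectin, a lectin that binds microbial sugars. Paneth cells carry CD24 at high levels, so that a CD24- gate is meant to leave them out. In RNA of sorted cells as a bulk, fewer cells of a type and less RNA per cell cannot be told apart, and where the RNA of the 7 genes came from, the stem cells or other cells that passed the gate, was not tested.

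The alpha-defensins are encoded by many related copies, some of them near-identical, which sets how far each can be read alone. In the GENCODE annotation of GRCm38, the assembly that the files call mm10, *Defa22* lies at chr8:21162277-21163249, *Defa17* at chr8:21655780-21656735 and *Defa24* at chr8:21734494-21735471, all on the plus strand. The coding sequences of *Defa17* and *Defa24* were 95.7% identical, and that of *Defa22* was 82.6% identical to *Defa24*. The last 120 coding bases of the 3 copies, and of *Defa20*, the copy with the largest fall in CORT, are shown to compare them where the mature peptide is encoded, from the annotated transcripts, with capitals for bases that are not identical to *Defa24* in an alignment of the coding sequences:
Defa24: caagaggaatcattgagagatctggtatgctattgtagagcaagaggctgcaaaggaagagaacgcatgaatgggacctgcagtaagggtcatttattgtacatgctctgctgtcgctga
Defa17: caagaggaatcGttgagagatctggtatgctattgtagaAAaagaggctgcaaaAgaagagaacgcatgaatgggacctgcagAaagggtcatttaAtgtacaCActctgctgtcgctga
Defa22: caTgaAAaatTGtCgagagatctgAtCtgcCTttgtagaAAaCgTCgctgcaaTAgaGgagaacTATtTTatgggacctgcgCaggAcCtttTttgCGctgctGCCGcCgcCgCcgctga
Defa20: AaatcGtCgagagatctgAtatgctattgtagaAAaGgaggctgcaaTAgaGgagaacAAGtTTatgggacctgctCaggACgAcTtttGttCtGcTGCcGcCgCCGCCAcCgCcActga
*Defa17* differed from *Defa24* at 8 of these 120 bases (A12G, G40A, C41A, G55A, T84A, T97A, T104C, G105A, with the *Defa24* base before the position, counted from 1 at the 5′ end of the stretch, and the *Defa17* base after it), while *Defa22* and *Defa20* differed at 36 and 37. Of all stretches of 150 bases, the length of a read, in the *Defa17* transcript, 88.7% were also found letter for letter in *Defa3*. The share was 10.7% for *Defa22* (with *Defa21*) and 0% for *Defa24*. No such stretch of *Lyz1* (chr10:117287797-117292868, minus strand), *Mmp7* (chr9:7692090-7699585, plus strand), *Ang4* (chr14:51763878-51773590, minus strand) or *Itln1* (chr1:171518122-171535294, minus strand) was shared with another gene. Counts of single defensin copies therefore depend on how shared reads were divided. The 3 copies were also added and tested as a sum, but *Defa3* and *Defa21*, which hold the shared stretches, lie outside it. This sum therefore does not remove the dependence, and a sum over all 42 copies in the table is given further below.

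Promoters were compared because most of these genes moved together. The RefSeq table for GRCm38.p6, which holds 250 bases before and 50 after each start, had 5 of the 7 genes (*Lyz1*, *Mmp7*, *Ang4*, *Defa22* and *Itln1*) and 5 of the 21 defensin copies tested. The core motif of TCF/LEF factors, the nuclear end of Wnt signaling, was searched as CTTTGAT on both strands, and 3.73% of all 32851 promoters held it. Each of the 5 defensin promoters held it 2 times, at positions between -114 and -72 from the start. These stretches are shown for *Defa22*, for *Defa20* and for *Defa23*, a copy close to *Defa24*, with the motif, here read from the other strand, in capitals:
Defa22, chr8:21162157-21162217, plus strand: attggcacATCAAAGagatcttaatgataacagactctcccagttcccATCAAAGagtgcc
Defa20, chr8:21509138-21509198, plus strand: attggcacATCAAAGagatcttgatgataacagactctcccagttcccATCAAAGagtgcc
Defa23, chr8:21054920-21054980, plus strand: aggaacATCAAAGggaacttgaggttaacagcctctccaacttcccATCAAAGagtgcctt
*Mmp7* has 2 starts in the table, and the windows of both held the motif 1 time, at 5 bases into the transcript from the upstream start and before the other start, whereas the promoters of *Lyz1*, *Ang4* and *Itln1* did not hold these letters. The full glucocorticoid response element, searched on both strands as AGAACA and TGTTCT with 3 bases between them, was in 3 of the 32851 promoters and in none of these. AGAACA alone, on both strands and including matches inside the full element, was in 19.0% of all promoters and in those of *Lyz1*, *Mmp7* and *Defa23*. The windows of *Defa2*, *Defa20*, *Defa21* and *Defa22* are close to letter-identical, with the TCF/LEF motif at -112 and -72 in each. The 5 defensin promoters are thus related copies and not separate cases. A match describes the sequence only.

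The libraries also held transcripts of goblet cell and enterocyte markers. Total estimated counts ran from 15934907 to 17135770 in Ctrl and stress, from 16465961 to 31280267 in vehicle and from 29426183 to 69533214 in CORT. Markers of ISCs, 6 genes that include *Lgr5* and *Olfm4*, summed to between 10620 and 13850 CPM (counts scaled to library size, with TMM factors over the 12 libraries) in every library, and the 7 Paneth cell products to between 106.4 and 266.6. Most of the ISC sum was *Olfm4*, with group means from 7370 to 9201 CPM. The 6 goblet markers summed to 395.2 to 742.5 CPM in Ctrl, vehicle and CORT, and to 932.5, 501.6 and 1448 in stress 1+2, 3 and 4+5+6. The 6 enterocyte markers summed to 396.7 to 601.7 in Ctrl, vehicle and CORT, and to 1137, 498 and 2055 in stress 1+2, 3 and 4+5+6. Enteroendocrine and tuft markers summed to at most 81.56 and 13.33 CPM (*Il25* was at 0 in every group and *Gfi1b* in stress), and blood and stromal markers to at most 6.573 and 3.249, with *Csf1r*, *Cdh5*, *Col3a1* and *Acta2* at 0 in all 12 libraries. Nothing in the labels says that the libraries of a group came from separate animals beyond their numbers, so the p-values below measure the spread between these libraries.

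Compared per length, *Defa24* and *Defa17* led. Averaged over the 12 libraries, *Defa24* stood at 87.7 FPKM (fragments per length and library size, rank 759 of 47729 genes), *Defa17* at 44.9, *Mmp7* at 39.7 and *Lyz1* at 29.7. *Itln1* stood at 14.8, *Defa22* at 9.04 and *Ang4* at 3.88 FPKM (rank 9378). The levels in each library are shown in the plot by gene and group.

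**Figure D1:**
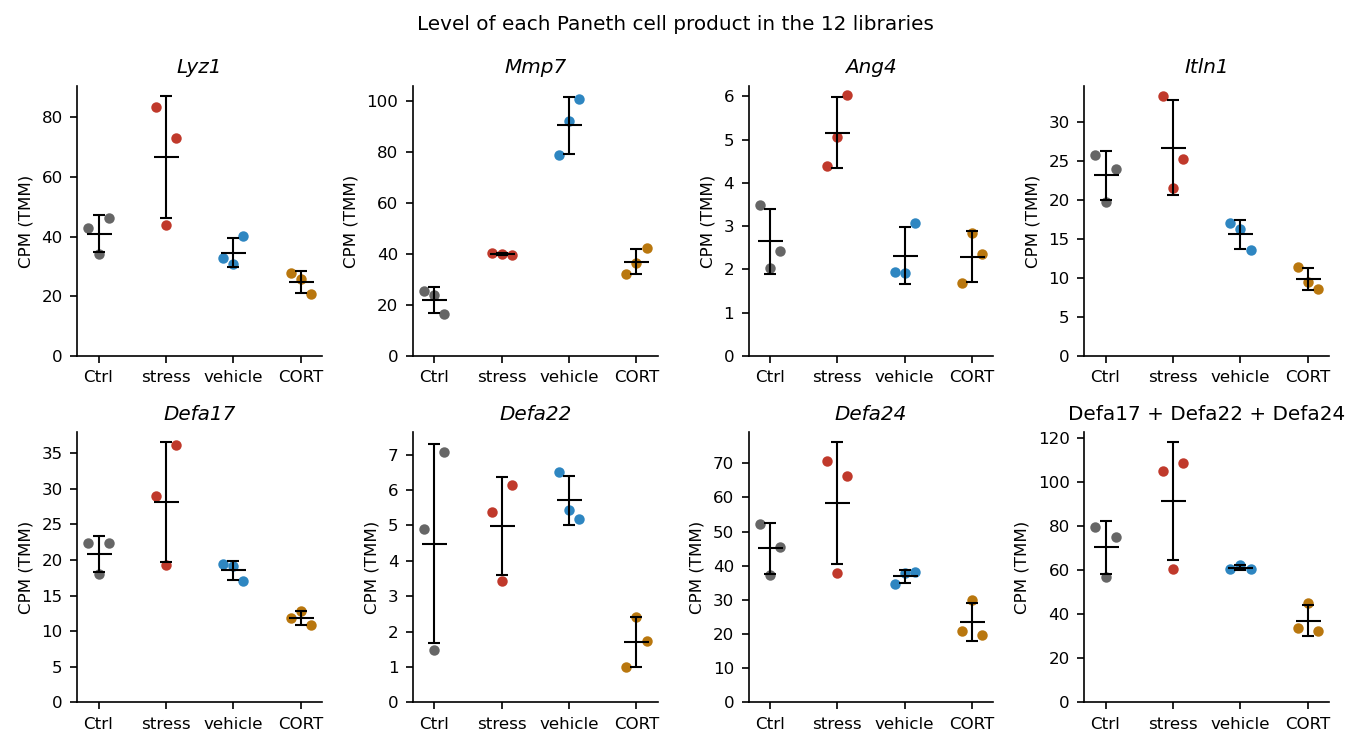
Level of each gene in CPM (linear axes from 0, TMM factors over the 12 libraries), with 1 point per library, and the mean and SD of each group (n = 3) as a bar and whiskers. *Mmp7* was highest in vehicle (78.7 to 100.8 CPM), whereas the sum of the 3 defensin copies was lowest in CORT (32.5 to 45.3 CPM).

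In stress, the protease gene *Mmp7* rose against Ctrl, and the antimicrobial genes were higher on average without passing the test. *Mmp7* stood at 25.6, 23.9 and 16.4 CPM in Ctrl 1, 2 and 3 and at 40.4, 39.9 and 39.6 CPM in stress 1+2, 3 and 4+5+6. The groups did not overlap, and the stress libraries lay within 1 CPM of each other. Its log2 fold change was 0.87 (SE 0.16), or 1.82-fold (adjusted p = 0.0285, edgeR). *Mmp7* was the only gene of the 7 that was called (1 of 7, adjusted p below 0.05), where 1.30% of the 13722 genes tested were called higher and 1.89% in either direction. *Ang4* also did not overlap, at 3.49, 2.02 and 2.42 CPM in Ctrl 1, 2 and 3 and 4.38, 5.06 and 6.02 CPM in stress 1+2, 3 and 4+5+6 (log2 fold change 0.96, SE 0.34, adjusted p = 0.207). Groups without overlap, with stress above Ctrl, were seen in 10.1% of all genes tested.

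*Lyz1* and the defensins split the stress libraries. *Lyz1* stood at 43.0, 34.1 and 46.1 CPM in Ctrl 1, 2 and 3, and at 83.4, 44.0 and 73.0 CPM in stress 1+2, 3 and 4+5+6 (log2 fold change 0.71, SE 0.21, adjusted p = 0.139). The sum of *Defa17*, *Defa22* and *Defa24* was 79.5, 56.9 and 74.9 CPM in Ctrl 1, 2 and 3, and 105.1, 60.6 and 108.5 CPM in stress 1+2, 3 and 4+5+6 (log2 fold change 0.38, SE 0.21, adjusted p = 0.438). For both, stress 1+2 and 4+5+6 lay above every Ctrl library, and stress 3 lay among them. The same 2 libraries held the high goblet and enterocyte sums given above. They are also the 2 stress libraries whose names read as pools of mice, and the part of pooling in this split was not tested. Of the 6 enterocyte markers, 4 were called higher in stress (*Alpi*, *Apoa1*, *Fabp1* and *Sis*, log2 fold changes from 3.05 to 3.60), as were 2 of the 6 goblet markers (*Clca1*, 1.59, and *Zg16*, 3.15). The median enterocyte marker was higher in all 3 stress libraries, stress 3 included (59.14 CPM, against 22.02 to 27.17 in Ctrl), as was *Mmp7*. The part of those cells in the values of *Mmp7*, *Lyz1* and the defensins was not tested. Of the 6 ISC markers, 1 was called lower in stress, *Ascl2* (log2 fold change -1.23, adjusted p = 0.000336, edgeR). *Itln1* was 23.1 ± 3.12 CPM in Ctrl and 26.7 ± 6.04 CPM in stress (SD, n = 3), with a log2 fold change of 0.21 (SE 0.18, adjusted p = 0.666). Taken singly, *Defa17*, *Defa24* and *Defa22* had log2 fold changes of 0.43, 0.37 and 0.15 (adjusted p from 0.388 to 0.922, edgeR). The median over the 7 genes was 0.43, against -0.00 over all genes tested.

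These calls moved with single libraries. The call of *Mmp7* was lost without Ctrl 1, Ctrl 2, Ctrl 3, stress 1+2 or stress 4+5+6 (adjusted p from 0.0705 to 0.113, edgeR). It was also lost without a filter on low counts (adjusted p = 0.122) and with limma (adjusted p from 0.0535 to 0.159). Without stress 3, *Lyz1* (0.93, adjusted p = 0.00304), *Defa17* (0.65, adjusted p = 0.0463) and *Defa24* (0.61, adjusted p = 0.0289) were called as well, as was the sum of the copies (0.61, adjusted p = 0.0246). DESeq2 called *Lyz1* with all libraries (0.71, adjusted p = 0.0157).

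After corticosterone, most Paneth cell products fell relative to vehicle, and none rose. *Mmp7*, *Defa17*, *Defa22*, *Defa24* and *Itln1* were called lower (5 of 7), where 4.50% of the 14656 genes tested were called lower and 8.13% in either direction. In 6 of the 7 genes, all CORT libraries lay below all vehicle libraries, which held for 13.0% of all genes. The median log2 fold change was -0.67 over the 7 genes and 0.01 over all genes.

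*Mmp7* fell furthest among the genes with no 150-base stretch shared with another gene. Its locus overlaps that of the annotated gene *AV064505*, whose part in the counts of *Mmp7* was not tested. *Mmp7* stood at 78.7, 92.1 and 100.8 CPM in vehicle 3, 5 and 6 and at 32.3, 36.4 and 42.3 CPM in CORT 2, 4 and 5. Every CORT library was below 45 CPM and every vehicle library above 75. The log2 fold change was -1.32 (SE 0.12), or 2.49-fold lower (adjusted p = 0.000483, edgeR), and the call held in all 14 alternatives computed.

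The sum of the 3 defensin copies stood at 60.6, 62.5 and 60.4 CPM in vehicle 3, 5 and 6 and at 33.6, 45.3 and 32.5 CPM in CORT 2, 4 and 5. The vehicle libraries were close to each other, and CORT 4 was the highest of its group. The log2 fold change was -0.74 (SE 0.12), or 1.67-fold lower (adjusted p = 0.00766, edgeR), and this call held in all 15 alternatives. *Defa24*, the most abundant copy, stood at 34.7, 37.9 and 38.2 CPM in vehicle 3, 5 and 6 and at 20.8, 30.1 and 19.9 CPM in CORT 2, 4 and 5 (log2 fold change -0.67, SE 0.16, adjusted p = 0.0326). *Defa17* stood at 19.4, 19.2 and 17.0 CPM and at 11.8, 12.8 and 10.9 CPM in the same order (log2 fold change -0.66, SE 0.14, adjusted p = 0.0204). *Defa22*, with far fewer counts (50 to 159 per library), went from 6.499, 5.44 and 5.19 CPM to 0.987, 2.40 and 1.73 CPM, a log2 fold change of -1.76 (SE 0.34, adjusted p = 0.0147). None of the 3 copies overlapped between the groups.

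The lectin gene *Itln1* stood at 17.0, 16.2 and 13.5 CPM in vehicle 3, 5 and 6 and at 11.4, 9.49 and 8.61 CPM in CORT 2, 4 and 5 (log2 fold change -0.68, SE 0.17, adjusted p = 0.0384). *Lyz1* stood at 32.9, 30.9 and 40.3 CPM and at 27.9, 25.96 and 20.7 CPM in the same order. Its groups did not overlap either, but its log2 fold change of -0.50 (SE 0.14) missed the threshold (adjusted p = 0.0637). *Ang4* stood at 1.95, 1.91 and 3.07 CPM in vehicle and at 1.69, 2.85 and 2.35 CPM in CORT, with groups that overlapped throughout (log2 fold change -0.04, SE 0.34, adjusted p = 0.961). *Ang4* had only 33 to 166 counts per library. The 6 goblet markers had 0 calls in this comparison by edgeR, 0 by DESeq2 and 0 at an unadjusted p below 0.05. Of the 6 ISC markers, 3 were called lower, *Lgr5* (-0.43, adjusted p = 0.0277), *Ascl2* (-0.998, adjusted p = 0.0114) and *Smoc2* (-0.31, adjusted p = 0.0474). Single markers of other cells were also called, the enterocyte gene *Fabp2* (0.46) and the endothelial gene *Pecam1* (2.12) higher and the tuft gene *Pou2f3* (-1.14) lower. The fold change of *Pecam1* rests on low levels, 0.289 to 0.945 CPM in vehicle and 1.49 to 3.25 CPM in CORT. The part of these other cells in the values above was not tested.

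The count of 5 depended on all libraries being in the fit. It was 2 without vehicle 3 or without vehicle 5, 4 without vehicle 6, 3 without CORT 2 or without CORT 4 and 1 (*Mmp7*) without CORT 5, where the fold changes kept their direction in every gene except *Ang4*. *Lyz1* was called by DESeq2 (adjusted p = 0.0137) and by limma on log2(FPKM + 1) (adjusted p = 0.0490).

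**Figure D2:**
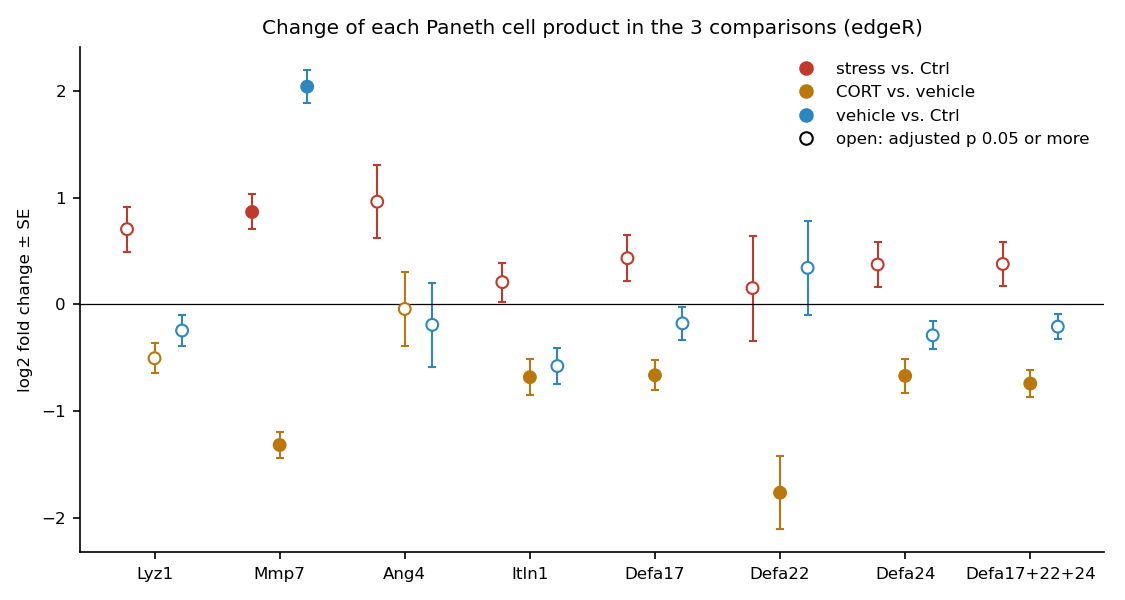
Log2 fold change of each gene and of the sum of the 3 defensin copies in 3 comparisons, with SE from edgeR as whiskers. Filled points passed an adjusted p of 0.05, and *Mmp7* was filled in all 3 comparisons, at 0.87, -1.32 and 2.04.

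The vehicle and Ctrl groups were also compared, so that the 4 groups could be put in order. This comparison shares the Ctrl libraries with that of stress and the vehicle libraries with that of CORT. *Mmp7*, whose values are given above, was 4.11-fold higher in vehicle (90.5 ± 11.1 CPM, SD, n = 3) than in Ctrl (21.95 ± 4.92), a log2 fold change of 2.04 (SE 0.16, adjusted p = 0.000183, edgeR). It was the only gene of the 7 called, where 0.447% of the 13642 genes tested were called higher and 0.799% in either direction. The lowest vehicle library held 78.7 CPM and the highest Ctrl library 25.6. The call held in 13 of 14 alternatives and was lost under limma on log2(FPKM + 1) without a filter (adjusted p = 0.111).

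None of the other 6 genes was called. *Itln1* lay lower in every vehicle library than in every Ctrl library (25.8, 19.7 and 23.9 CPM in Ctrl 1, 2 and 3), with a log2 fold change of -0.58 (SE 0.16) that did not pass (adjusted p = 0.171). Vehicle libraries lay below all Ctrl libraries in 7.65% of genes tested. *Lyz1* (-0.24), the sum of the copies (-0.21), *Ang4* (-0.19) and *Defa22* (0.34) did not pass either (adjusted p from 0.591 to 0.915, edgeR). Of the 6 enterocyte markers, 1 was called higher in vehicle, *Fabp1* (1.915, adjusted p = 0.0183, edgeR), and DESeq2 called 3. Their log2 fold changes were positive in 2 and negative in 4. The 6 ISC and 6 goblet markers had 0 calls by edgeR or DESeq2. The part of other cells in the values of *Mmp7* was not tested. The vehicle and Ctrl groups differed in the injection and in the deprivation of food and water, and these cannot be told apart from any other difference between the 2 sets of mice.

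Ordered by mean level, *Mmp7* went from Ctrl (21.95 CPM) over CORT (37.0 ± 5.01) and stress (40.0 ± 0.372) to vehicle (90.5). Of the neighbours, CORT and stress overlapped and were not tested against each other, and the CORT libraries all lay above the Ctrl libraries, which was not tested either. *Lyz1*, *Defa17*, *Defa24* and *Itln1* shared another order, with CORT lowest, then vehicle, Ctrl and stress. The means of *Ang4* had this order too, with CORT (2.295 CPM) next to vehicle (2.309). For *Lyz1* the means were 24.8 ± 3.72, 34.7 ± 4.93, 41.1 ± 6.23 and 66.8 ± 20.4 CPM (SD, n = 3), and no step between neighbours passed by edgeR, while DESeq2 called those between Ctrl and stress and between CORT and vehicle. For *Defa24* they were 23.6 ± 5.64, 36.9 ± 1.96, 45.1 ± 7.44 and 58.3 ± 17.8 CPM, and only the step between CORT and vehicle passed by edgeR. *Defa22* went from CORT (1.71 CPM) over Ctrl (4.49) and stress (4.98) to vehicle (5.71), with vehicle highest, as for *Mmp7*. Of the neighbours in this order, only Ctrl and stress were tested against each other, and that step did not pass.

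Whether stress and corticosterone changed these genes differently was tested as an interaction over the 12 libraries, the change in stress minus the change in CORT. It was called for *Mmp7*, which had risen in stress and fallen in CORT (log2 difference 2.18, SE 0.21, adjusted p = 0.000688, edgeR). Its mean levels in stress and CORT were similar (40.0 and 37.0 CPM), whereas the 2 control groups differed, with a log2 fold change of 2.04 in vehicle against Ctrl. The interaction of *Mmp7* therefore includes this difference between the controls. *Mmp7* was the only gene of the 7 called, where 0.194% of the 14415 genes tested were called in that direction and 0.388% in either, and the call held in all 16 alternatives. *Lyz1* (1.20, SE 0.28, adjusted p = 0.0907), *Defa17* (1.09, adjusted p = 0.0954) and the sum of the copies (1.11, adjusted p = 0.0955) missed the threshold. All 7 differences were positive, with a median of 1.09 against -0.01 over all genes. DESeq2 called 5 of the 7 (*Lyz1*, *Mmp7*, *Defa17*, *Defa24* and *Itln1*), and edgeR without stress 3 called 4 (*Lyz1*, *Mmp7*, *Defa17* and *Defa24*).

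With the 3 copies included, 42 alpha-defensin copies were in the table, and 21 had enough counts to be tested. Entries with pseudogene symbols were among the 42, and none of them was tested. The tested copies are not all near-identical. *Gm7849*, *Gm7861*, *Gm14851* and *AY761184* have 351 coding bases, against 282 in *Defa24*, and were 63.2% to 64.7% identical to it. In CORT, 11 of the 21, among them the 3 already given, were called lower and none higher, against 4.50% of all genes called lower. All 21 had negative log2 fold changes, with a median of -1.03, against 0.01 over all genes. The copies share reads and are not independent of each other. The sum over all 42 copies, which needs no choice among them, was 178.4 ± 9.38 CPM in vehicle and 98.3 ± 14.4 CPM in CORT (SD, n = 3), a log2 fold change of -0.88 (adjusted p = 0.00138, edgeR).

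The copies spread widely in size of change. *Defa20* stood at 8.51, 11.6 and 10.3 CPM in vehicle 3, 5 and 6 and at 2.16, 1.89 and 1.14 CPM in CORT 2, 4 and 5 (log2 fold change -2.55, SE 0.27, adjusted p = 0.000833). *Defa2* (-2.39) and *Gm15308* (-2.30) followed, and at least 99.6% of the 150-base stretches of each of these 3 transcripts occurred in another copy, so that they were read as a single measurement. *Defa21* (-1.75), *Gm7849* (-1.15) and *Gm7861* (-1.14) were also called. *Defa3*, which shares most of its sequence with *Defa17*, had -0.65 (adjusted p = 0.0386), next to -0.66 for *Defa17*. Copies with a mean of at least 10 CPM that were not called, *Defa23*, *Defa-rs7*, *Gm15284*, *Gm14851* and *AY761184*, had log2 fold changes between -0.61 and -0.48. *Defa20*, *Defa2*, *Gm15308*, *Defa22* and *Defa21*, with the steepest falls among the copies named, were low, at up to 6.52 CPM on average, and whether copies differ from each other in their change was not tested. The count of 11 was 5 to 9 with any library left out (5 without CORT 5, 6 without CORT 2, and 7 without vehicle 3, vehicle 5 or vehicle 6), and 18 by limma on log2(FPKM + 0.1).

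In stress, none of the 21 copies was called by edgeR (1 at an unadjusted p below 0.05), and DESeq2 called 1. Of the 21, 15 had positive log2 fold changes, with a median of 0.37. *Defa20* (-0.38), *Defa2* (-0.48) and *Gm15308* (-0.38) were on the other side of 0 from *Defa24* (0.37), each with an adjusted p above 0.05.

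**Figure D3:**
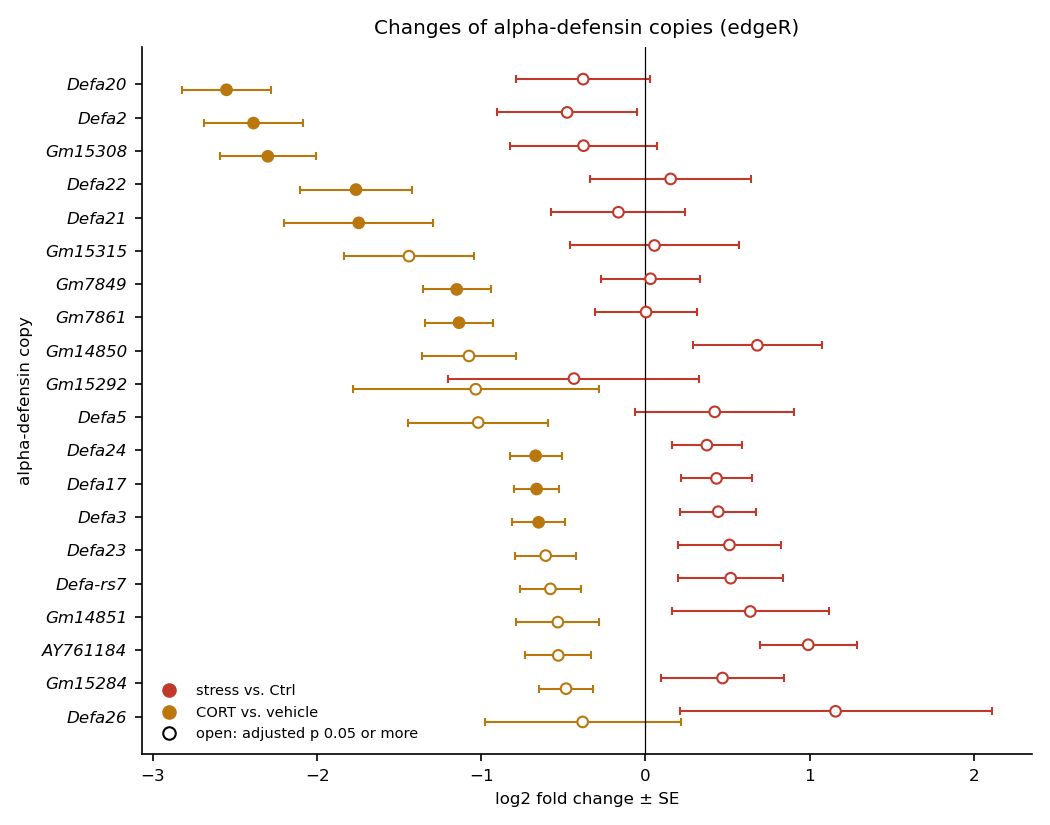
Log2 fold change with SE (edgeR) of 20 of the alpha-defensin copies tested, for stress vs. Ctrl and CORT vs. vehicle, ordered by the change in CORT. Filled points passed an adjusted p of 0.05, which 10 of those drawn did in CORT and none in stress, and *Defa20* fell furthest (-2.55).

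Near relatives could lend reads to the other members, and their levels were therefore read. The coding sequence of *Lyz2*, the lysozyme of macrophages, was 95.1% identical to that of *Lyz1*, and its count was 0 in 11 libraries and 9 in CORT 4. *Ang*, 84.9% identical to *Ang4* and overlapping *Rnase4*, stood at 27.2, 26.7 and 27.1 CPM in vehicle 3, 5 and 6 and at 16.2, 19.5 and 17.2 CPM in CORT 2, 4 and 5 (log2 fold change -0.64, SE 0.12, adjusted p = 0.0126). That call was lost without CORT 5 (adjusted p = 0.0518). The group means of *Ang* had the same order as those of *Mmp7*. Ctrl was lowest (15.98 CPM), followed by CORT (17.63), then stress (22.8), with vehicle highest (27.02). Vehicle against Ctrl had a log2 fold change of 0.76 (SE 0.16), which edgeR did not call (adjusted p = 0.0563) and DESeq2 did. How far the fall of *Ang* in CORT depends on its high level in vehicle was not tested.

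Of 12 further secreted products of Paneth cells, 10 were tested, and those that changed were C-type lectins of the Reg3 family, which enterocytes are also known to make. *Reg3b* stood at 164.1, 135 and 98.3 CPM in Ctrl 1, 2 and 3 and at 329.7, 509.4 and 313.9 CPM in stress 1+2, 3 and 4+5+6 (log2 fold change 1.54, SE 0.21, adjusted p = 0.00767). It was highest in stress 3, the library that was lowest for *Lyz1* and the defensins. *Reg3b* fell in CORT, from 222.4, 161.3 and 568.9 CPM in vehicle 3, 5 and 6 to 48.9, 35.8 and 105.1 CPM in CORT 2, 4 and 5 (-2.35, SE 0.51, adjusted p = 0.0226). *Reg3a* rose in stress (2.60, SE 0.48, adjusted p = 0.0255) and *Reg3g* fell in CORT (-2.40, SE 0.53, adjusted p = 0.0255), and had 1.004 in stress (adjusted p = 0.0625). Calls were lost for *Reg3a* without any of Ctrl 1, 2 or 3, stress 1+2 or 4+5+6 (adjusted p up to 0.146), for *Reg3b* in stress without Ctrl 2 (0.0506), and for *Reg3b* and *Reg3g* in CORT without vehicle 6, CORT 2 or CORT 4 (up to 0.0889 and 0.0955). With all libraries kept, the calls in stress were also lost under other settings, up to an adjusted p of 0.233 for *Reg3a* and 0.134 for *Reg3b*, so that they held in 5 and 10 of 14 alternatives in all. The same was seen for the calls in CORT, up to an adjusted p of 0.112 for *Reg3b* and 0.133 for *Reg3g*. Each of these held in 10 of 14 alternatives in all. Of the 10 genes, 2 were called in each comparison, against 1.89% of all genes in stress and 8.13% in CORT, and the median log2 fold changes were 0.32 in stress and -0.13 in CORT. *Spink4*, at 32.2 to 65.6 CPM, had -0.00 in stress and -0.12 in CORT (adjusted p = 0.997 and 0.771).

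Of 13 genes of Paneth cell fate and secretory machinery, 0 were called in stress by edgeR (4 at an unadjusted p below 0.05, 1 by DESeq2). In CORT, *Xbp1*, a transcription factor of the secretory stress response, was lower, at 115.6, 123.6 and 175.6 CPM in vehicle 3, 5 and 6 and 64.1, 78.3 and 88.9 CPM in CORT 2, 4 and 5 (log2 fold change -0.87, SE 0.17, adjusted p = 0.0142). *Kit*, a receptor carried by Paneth and other secretory cells, was higher, where 3.64% of all genes were called higher (0.72, SE 0.19, adjusted p = 0.0491). *Sox9*, *Atoh1* and *Gfi1*, which direct the secretory fate, had -0.24, -0.03 and -1.27 (adjusted p from 0.0699 to 0.953, edgeR). Of 5 factors by which Paneth cells sustain their neighbours, 2 were called in CORT, against 8.13% of all genes. *Tgfa*, an EGF receptor ligand, was higher (0.80, SE 0.14, adjusted p = 0.00985), and the Notch ligand *Dll1* was lower (-0.48, SE 0.10, adjusted p = 0.0185). In stress, 0 of these 5 were called by edgeR or DESeq2 (2 at an unadjusted p below 0.05). Without CORT 4, the calls of *Xbp1*, *Kit*, *Tgfa* and *Dll1* were lost (adjusted p = 0.0606, 0.192, 0.0514 and 0.0912), as were those of *Dll1* without vehicle 3 (0.0522) or CORT 2 (0.0622) and of *Kit* without vehicle 3, vehicle 6, CORT 2 or CORT 5 (up to 0.129). With all libraries kept, other settings also lost these calls, up to an adjusted p of 0.0698 (*Xbp1*), 0.238 (*Kit*), 0.0978 (*Tgfa*) and 0.0603 (*Dll1*). The calls of *Xbp1* and *Tgfa* held in 12 of 14 alternatives in all, that of *Dll1* in 10 and that of *Kit* in 5. The medians of the 13 and the 5 genes in CORT were -0.03 and -0.31.

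Within libraries, the ratio of *Mmp7* to *Lyz1* separated the injected from the uninjected groups. In FPKM, which compares genes per length, it was 0.420 to 0.830 in Ctrl, 0.572 to 1.07 in stress, 2.83 to 3.53 in vehicle and 1.37 to 2.42 in CORT. The ratio of the 3 defensin copies to *Lyz1* was 4.97 to 5.66 in Ctrl, 3.86 to 4.56 in stress, 4.60 to 6.21 in vehicle and 3.71 to 5.34 in CORT. For *Mmp7*, vehicle did not overlap with any other group. For the defensins, stress lay below both Ctrl and vehicle, and the other groups overlapped. These ratios were not tested.

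**Figure D4:**
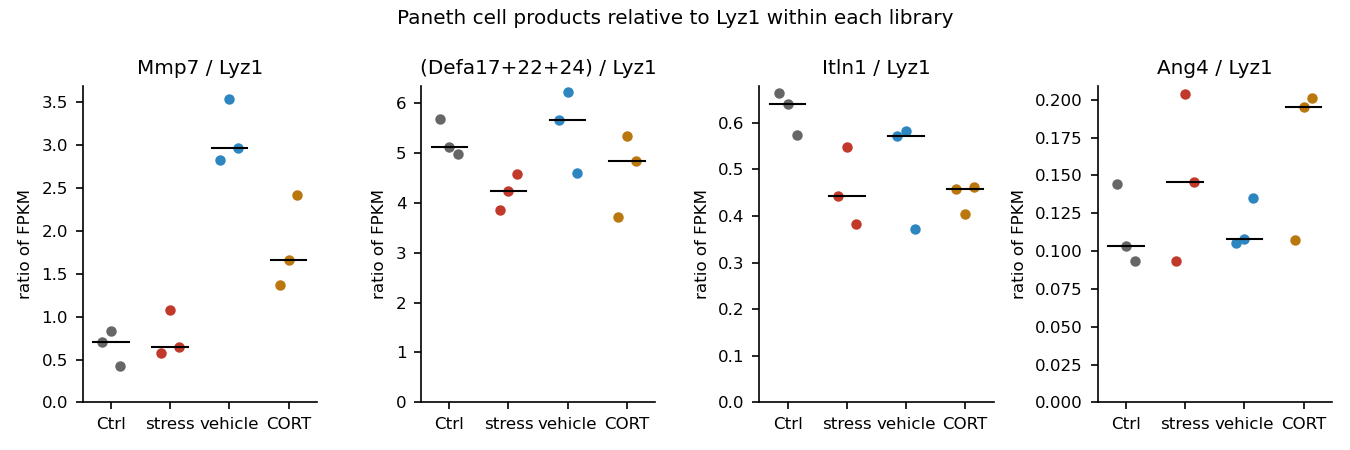
Ratio of FPKM to that of *Lyz1* within each library (points), with the median of each group as a line, on linear axes from 0. The ratio of *Mmp7* to *Lyz1* was above 1.3 in all 6 injected libraries and below 1.1 in the other 6, while that of the defensin copies stayed between 3.71 and 6.21.

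Across the 12 libraries, which share depth and library with each other, *Lyz1* varied with *Defa24* (Pearson r = 0.93, Spearman rho = 0.90 of log2(CPM + 1)), *Defa17* (r = 0.92, rho = 0.89) and *Itln1* (r = 0.89, rho = 0.92). *Mmp7* had r between -0.28 and 0.26 with the other members. With group means taken out, r was 0.80 for *Lyz1* and *Defa24*, 0.72 for *Lyz1* and *Defa17* and 0.66 for *Lyz1* and *Itln1*. Among 12731 genes outside the lists with a mean of at least 1 CPM, those most like *Lyz1* on this measure were *Azin1* (0.94), *Nkrf* (0.93), *S100a6* (0.92), *Gm21498* (0.92) and *Btnl5-ps* (0.91). Those most like the sum of the 3 copies were *Slc6a4* (0.96), *Nynrin* (0.95), *Bach1* (0.95), *Slk* (0.94) and *Uso1* (0.94). With the group means kept in, the plain r of these genes ran from -0.38 (*Azin1*) to 0.88 (*Gm21498*) with *Lyz1* and from -0.25 (*Slc6a4*) to 0.91 (*Slk*) with the copies. These values describe 12 libraries and carry no test.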

How the data were processed

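RNA of Lgr5-EGFPhi ISCs was measured in 12 libraries of 4 groups, mapped by their titles. The authors' notes name HISAT2 2.2.1 and StringTie 2.2.1 on mm10, whereas their methods name other versions and another counter. The authors deposited estimated counts for 47729 genes, not divided by library size. They behave as covered bases divided by 75, so a read pair of 150-base reads makes up to 4 counts. The authors also deposited FPKM per gene, and coverage as a signal, used here to work out the scale of those counts (deposited TPM was not used). Counting is not stated to use strand.

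Counts were rounded and tested with edgeR 4.0.16 (quasi-likelihood, TMM, filterByExpr, Benjamini-Hochberg over all genes tested, adjusted p below 0.05) in R 4.3.3. A comparison used its own 6 libraries and the interaction all 12. SE is the absolute log2 fold change over the square root of F. The methods also ask for a 2-fold change, not required here. Tests were checked on simulated data. Levels are CPM with TMM factors over 12 libraries. Alternatives used DESeq2 1.42.0 and limma 3.58.1 on log2(FPKM + 1) or log2(FPKM + 0.1), at a mean FPKM of at least 0.1 or unfiltered. Coding sequences were aligned with Biopython 1.88. The genes named were the 7 members, their relatives, list genes with an adjusted p below 0.05, defensin copies with a mean of at least 10 CPM, the genes most like *Lyz1* and the defensins, and cell type markers; the promoters, *Spink4*, *Sox9*, *Atoh1* and *Gfi1* were added. Members and lists were chosen with earlier results of these data known. No value column was without a sample (0 columns). Of the defensin copies tested, 1 is counted but not reported here.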

Additional observations from a re-analysis of the deposited data

Results flagged for a closer look

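The changes in stress and in CORT differed by the interaction test over 12 libraries in 1 of the 7 members and in 3 of 10 further secreted Paneth products (edgeR, adjusted over 14415 genes, of which 0.388% were called in either direction). The log2 difference between the change in stress and the change in CORT was 2.18 for *Mmp7* (adjusted p = 0.000688), 3.89 for *Reg3b* (adjusted p = 0.0209), 3.70 for *Reg3a* (adjusted p = 0.0355) and 3.40 for *Reg3g* (adjusted p = 0.0461). For *Mmp7*, stress and CORT had similar mean levels (40.0 and 37.0 CPM), and the difference between their controls, vehicle against Ctrl, was 2.04. The call of *Mmp7* held in all 16 alternatives, with an adjusted p of at most 0.00466. Those of *Reg3b*, *Reg3a* and *Reg3g* were lost in 5, 9 and 8 of 16, with an adjusted p of up to 0.0824, 0.0941 and 0.130. In vehicle, *Reg3b* and *Reg3g* were highest in vehicle 6 (568.9 and 322 CPM), against at most 222.4 and 158.3 CPM in vehicle 3 and 5. The interactions of the Reg3 genes also include the difference between the controls. Vehicle against Ctrl was 1.25 for *Reg3b*, 0.68 for *Reg3g* and 0.04 for *Reg3a* (adjusted p = 0.18, 0.585 and 0.986, edgeR).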

How the results depend on the processing

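No paired analysis was possible because the groups compared share fewer than 2 replicate numbers. Of 692 alternative values of single genes, 565 kept their direction and side of the threshold, 107 lost the call, 14 gained it and 6 turned, all in genes that were not called. These were *Defa22* in stress without Ctrl 2 (-0.26) and without stress 4+5+6 (-0.022), against up to 0.65 otherwise, *Ang4* in CORT without vehicle 6 (0.22) and without CORT 2 (0.15), against down to -0.23, and, between vehicle and Ctrl, *Ang4* without Ctrl 1 (0.060), against down to -0.45, and *Defa22* without Ctrl 2 (-0.072), against up to 0.83. The alternatives for defensin copies other than the 3 and for other list genes were added after the data had been seen.

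The members called in stress (1 of 7) became 2 with DESeq2 and 0 without a filter on low counts (3 at an unadjusted p below 0.05) or with limma on log2(FPKM + 1), on log2(FPKM + 0.1) or without a filter (3, 3 and 2), and 0 to 4 with a library left out. All genes called (260) became 557, 46, 75, 79 and 27 in that order, 510 with all 12 libraries in the fit and 56 to 849 with a library left out (88 without stress 1+2, 114 without stress 4+5+6). The sum of the copies (0.38) was 0.24 to 0.61 (0.25 without Ctrl 2). In CORT, the members called (5) became 6 with DESeq2, 3 with unfiltered limma and 1 to 4 with a library left out, all genes (1192) became 1788, 561 and 503 to 1003, and the defensin copies called lower (11) became 17 with limma on log2(FPKM + 1), 18 on log2(FPKM + 0.1) and 5 to 9 with a library left out.

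Between vehicle and Ctrl, the member called (1) became 0 with unfiltered limma. All genes called (109) became 299 with DESeq2, 21 and 24 with limma at either pseudocount, 0 with unfiltered limma (1716 at an unadjusted p below 0.05) and 20 to 169 with a library left out. For the interaction, the member called (1) became 5 with DESeq2 and 1 to 4 with a library left out, all genes (56) became 393 and 12 to 241, and the sum of the copies (1.11) passed with DESeq2 (1.13, adjusted p = 0.00531) and ran from 0.97 to 1.34 with a library left out (0.98 without Ctrl 2). Leaving out a library leaves fewer samples, and the cause of the other changes was not tested. With 3 libraries a group, genes at a few CPM, such as *Ang4* and *Defa22*, are the least certain, and a count of 0 allows up to 12 counts (3 read pairs).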
